A study of Mus musculus with 8 samples.

Results

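The 10 genes described here encode parts of the contractile and matrix-crosslinking machinery of the myofibroblast: Acta2, Tagln, Myl9, Tpm2 and Cnn2 of the actin cytoskeleton, Vim of the intermediate filaments, the lysyl oxidases Lox and Loxl2, and the matricellular proteins Sparc and Thbs1. They were chosen by gene symbol from the 34465 genes of the deposited table, with earlier results of these data known. All 10 passed the filter on low signal. Whole-liver RNA of mice (129S4/SvJae/FVB, aged 3 months) was sequenced. All animals carried floxed alleles of the platelet-derived growth factor receptor beta (b-PDGFR fl/fl, gene Pdgfrb). They were negative or positive for a Cre recombinase under the GFAP promoter, which the series describes as deleting the receptor in hepatic stellate cells, and the liver was collected either from sham-operated animals or, in regrowth, 72 h after part of it had been resected (partial hepatectomy). Genotype and operation gave 4 groups of 2 libraries each. No label ties a library to an animal, so the tests measure only the spread between these libraries.

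Hepatic stellate cells are the pericytes of the liver sinusoid, and together with portal fibroblasts they can turn into myofibroblasts when the liver is injured. A myofibroblast assembles stress fibres from alpha smooth muscle actin (Acta2) and its partners, pulls on its surroundings, and deposits collagen. Lysyl oxidases then oxidise lysine residues of collagen and elastin so that the fibres become covalently crosslinked and stiff. Vascular smooth muscle around portal and central vessels uses the same contractile genes, and in RNA from whole liver fewer cells of a type and less RNA per cell cannot be told apart.

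Values are a normalized signal with no stated scale, so levels were compared between libraries for each gene and not between genes. Pdgfrb was at 49.8 and 63.3 in Cre-negative sham, 59.4 and 46.0 in Cre-positive sham, 122.6 and 70.5 in Cre-negative hepatectomy, and 63.1 and 99.9 in Cre-positive hepatectomy. The signal of the targeted gene therefore overlapped between genotypes (log2 fold change −0.16, SE 0.27, adjusted p = 0.850 over both operations by limma), and groups are named by their labels throughout. Gfap was low in every library (0.19 to 7.35). The 12 hepatocyte markers summed to between 250860 and 648263 in every library, as the tissue label says, although Alb, the albumin gene, was listed at 0 in 7 of 8 libraries, so an exact 0 in this table can be a failed estimate. The sequencing depth is unknown. Replicate 1 of Cre-positive hepatectomy stood apart from the other 3 hepatectomy libraries for many genes: leaving it out raised the share of all tested genes called in the hepatectomy comparison from 4.49% to 32.7%. Results that rest on it are given with and without it where it moved them most. Replicate 2 of the same group differed in another way. Its largest isoform value was 1.45e+06, against 227226 to 341076 in the other libraries. Which library of that pair is the atypical one was not tested.

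Hepatectomy was compared with sham to ask how these genes stood during regrowth of the liver. Averaged over genotypes, 9 of the 10 genes had a positive log2 fold change, as did 57.7% of all genes tested, and the median over the 10 was 0.80 against 0.12 over all 16443 genes tested. Only Vim rose past the threshold of an adjusted p of 0.05, which is 1 of 10 genes where 4.49% of all genes tested were called, 3.64% as higher. At an unadjusted p under 0.05 there were 5 (Vim, Tpm2, Tagln, Lox and Sparc), all higher after hepatectomy, where 23.8% of all genes passed in either direction and 16.1% in that direction. All 4 hepatectomy libraries lay above all 4 sham libraries for Vim alone, an arrangement held by 11.2% of all genes. For a further 7 genes (Acta2, Tagln, Myl9, Tpm2, Lox, Loxl2 and Sparc) 3 of the 4 hepatectomy libraries did so. The share of all genes with that arrangement was not counted, so how common it was is unknown.

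**Figure D1:**
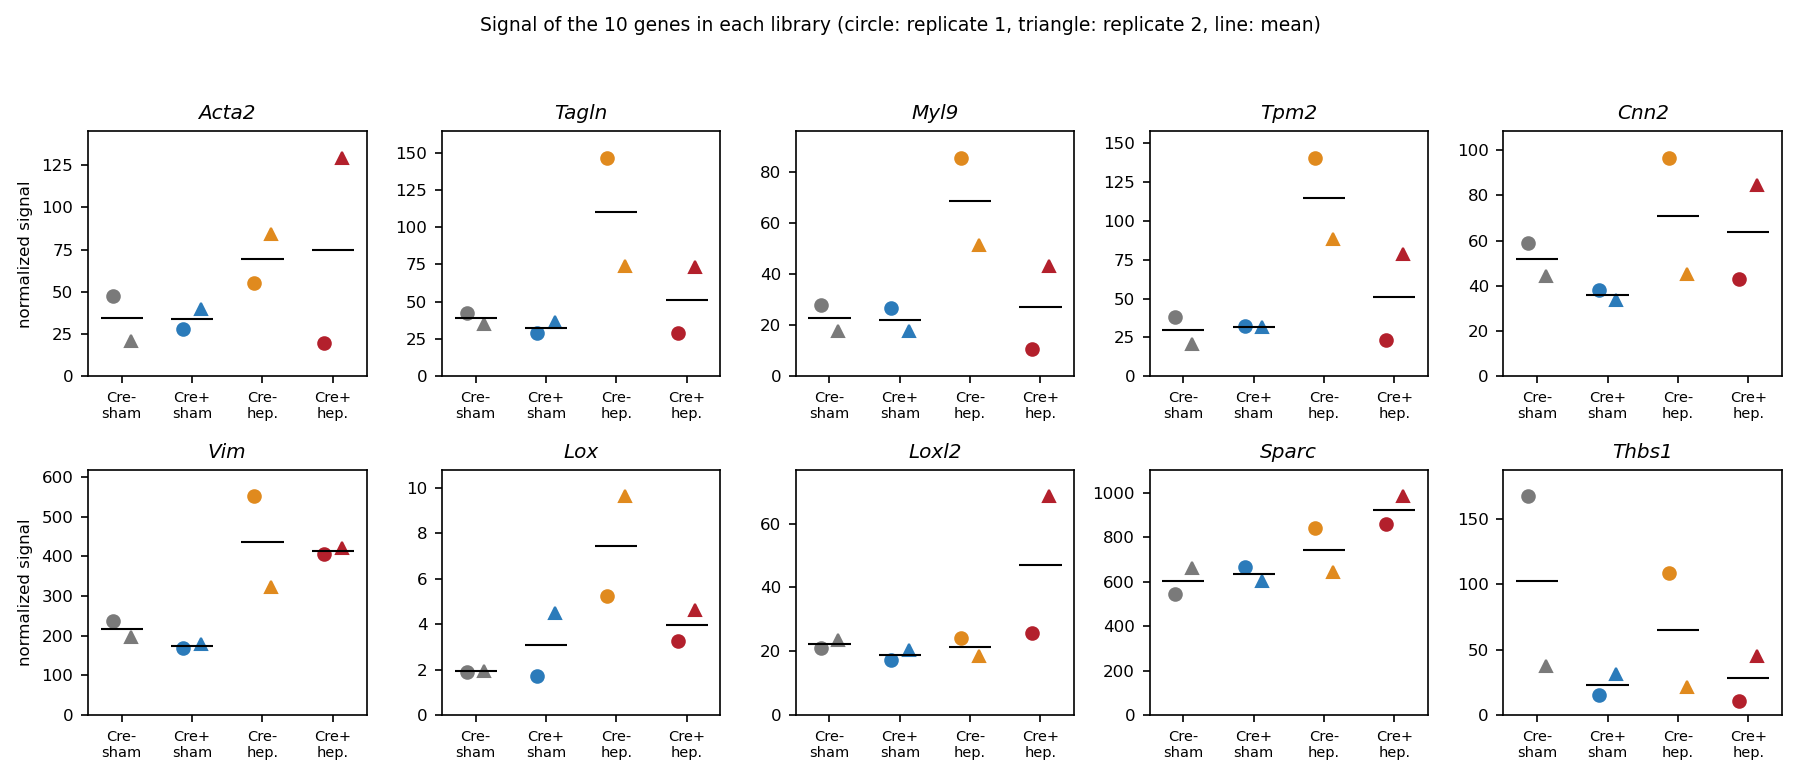
Normalized signal (vertical axis, starting at 0, own scale for each gene) of the 10 genes in the 4 groups (horizontal axis). Circles are replicate 1, triangles replicate 2 and lines the mean of the 2 libraries. Vim is higher in all 4 hepatectomy libraries (323.2 to 550.7) than in all 4 sham libraries (168.5 to 238.1), and Acta2, Tagln, Myl9 and Tpm2 are within or below the sham range in replicate 1 of Cre-positive hepatectomy.

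Acta2, the alpha smooth muscle actin that defines the myofibroblast stress fibre, was at 47.6 and 21.0 in Cre-negative sham, 27.6 and 39.99 in Cre-positive sham, 55.1 and 84.0 in Cre-negative hepatectomy, and 19.6 and 129.5 in Cre-positive hepatectomy. Both Cre-negative hepatectomy libraries were above every sham library, whereas the Cre-positive hepatectomy pair held the lowest and the highest value of all 8, a ratio of 6.60 between replicates. The log2 fold change averaged over genotypes was 0.84 (SE 0.59, adjusted p = 0.398). Acta2 shares near-identical coding sequence with the other muscle actins, and how reads were divided among them is not given, so its values are uncertain.

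Tagln encodes transgelin (SM22), an actin-bundling protein of smooth muscle. Its signal was 42.6, 35.3, 28.7 and 36.3 in the Cre-negative and then Cre-positive sham libraries, 146.8 and 74.0 in Cre-negative hepatectomy, and 28.8 and 73.2 in Cre-positive hepatectomy. The 3 libraries above the sham range left only replicate 1 of Cre-positive hepatectomy inside it, and the log2 fold change was 0.95 (SE 0.36, adjusted p = 0.179). Exons of Tagln overlap those of Pcsk7 on the other strand, and the strand of the libraries is not stated, so reads of the pair cannot be told apart. Exons of Lox, Loxl2 and Thbs1 likewise overlap less studied genes on the other strand.

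Myl9 encodes the regulatory light chain whose phosphorylation switches on smooth muscle myosin. Its signal was 27.9, 17.9, 26.9 and 17.6 in the sham libraries in the same order, 85.8 and 51.6 in Cre-negative hepatectomy, and 10.8 and 43.3 in Cre-positive hepatectomy. The lowest of the 8 values again belonged to replicate 1 of Cre-positive hepatectomy, with the other 3 hepatectomy libraries above all sham libraries (log2 fold change 0.77, SE 0.46, adjusted p = 0.331). Tpm2, the beta tropomyosin that lies along the actin filament, was at 38.3, 20.7, 32.2 and 31.7 in sham, 140.9 and 88.3 in Cre-negative hepatectomy, and 23.1 and 78.6 in Cre-positive hepatectomy. Its log2 fold change of 1.18 (SE 0.42, adjusted p = 0.159) was the highest of the 10 genes without reaching the threshold. Cnn2, a calponin found in smooth muscle and in other motile cells, was at 58.8, 44.4, 38.2 and 33.8 in sham, 96.7 and 45.4 in Cre-negative hepatectomy, and 43.1 and 84.6 in Cre-positive hepatectomy. Only 2 hepatectomy libraries exceeded the sham range for Cnn2, 1 of each genotype (log2 fold change 0.55, SE 0.33, adjusted p = 0.338).

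The 4 genes Acta2, Tagln, Myl9 and Tpm2 thus had the same high libraries. Against the sham mean of their own genotype they were higher by between 0.78 and 2.28 on the log2 scale in both libraries of Cre-negative hepatectomy, and by between 0.96 and 1.93 in replicate 2 of Cre-positive hepatectomy. In replicate 1 of Cre-positive hepatectomy the differences were −0.73 for Acta2, −0.16 for Tagln, −0.95 for Myl9 and −0.45 for Tpm2. Of the 10 genes, 3 (Acta2, Myl9 and Thbs1) had their lowest value there, as did 18.5% of all genes tested, and 5 (Tagln, Vim, Myl9, Tpm2 and Cnn2) had their highest value in replicate 1 of Cre-negative hepatectomy, as did 32.2% of all genes. The closest pairs among the 10 were Myl9 with Tpm2 and Tagln with Tpm2, whose profiles of log2 signal, centred on each gene's mean, differed by a root mean square of 0.28 and 0.30 over the 8 libraries.

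**Figure D2:**
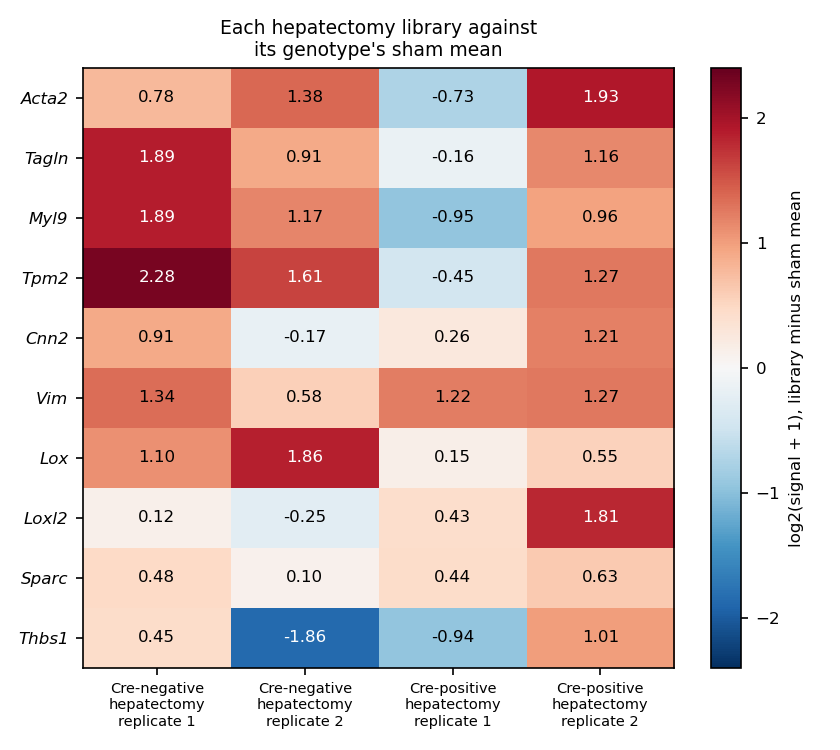
Difference of log2(signal + 1) between each of the 4 hepatectomy libraries (columns) and the sham mean of its genotype, for the 10 genes (rows), as colour and printed value. Acta2, Tagln, Myl9 and Tpm2 are positive in 3 libraries and negative in replicate 1 of Cre-positive hepatectomy, while Vim lies between 0.58 and 1.34 in all 4.

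Smooth muscle and myofibroblast genes are classically driven by serum response factor through the CArG box, a short A/T-rich element framed by CC and GG. Because Acta2, Tagln, Myl9 and Tpm2 were high in the same 3 libraries, the 250 bases before the annotated start were searched on both strands in the RefSeq promoters of GRCm38.p6, which held 6 of the 10 genes (Acta2, Vim, Myl9, Tpm2, Cnn2 and Sparc). Entries for Tagln, Lox, Loxl2 and Thbs1 were not used here. The upstream windows of the 4 contractile genes with an entry follow, Cnn2 among them although only 2 of its hepatectomy libraries were high, each 5′ to 3′ on the gene's strand, with capitals marking a CArG box in which at most 1 of the 6 central bases departs from A or T. They lie at chr19:34255374-34255623 on the minus strand for Acta2, chr2:156775214-156775463 on the plus strand for Myl9, chr4:43523555-43523804 on the minus strand for Tpm2 and chr10:79988350-79988599 on the plus strand for Cnn2.
Acta2: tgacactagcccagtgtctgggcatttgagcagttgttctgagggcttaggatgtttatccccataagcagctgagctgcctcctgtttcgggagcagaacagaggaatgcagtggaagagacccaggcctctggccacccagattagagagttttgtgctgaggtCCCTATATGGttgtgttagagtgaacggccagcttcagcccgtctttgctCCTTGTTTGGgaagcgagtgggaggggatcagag
Myl9: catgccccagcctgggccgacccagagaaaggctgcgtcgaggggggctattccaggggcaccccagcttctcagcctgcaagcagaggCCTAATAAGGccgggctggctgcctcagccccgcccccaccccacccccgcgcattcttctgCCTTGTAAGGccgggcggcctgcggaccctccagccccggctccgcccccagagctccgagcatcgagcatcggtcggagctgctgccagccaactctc
Tpm2: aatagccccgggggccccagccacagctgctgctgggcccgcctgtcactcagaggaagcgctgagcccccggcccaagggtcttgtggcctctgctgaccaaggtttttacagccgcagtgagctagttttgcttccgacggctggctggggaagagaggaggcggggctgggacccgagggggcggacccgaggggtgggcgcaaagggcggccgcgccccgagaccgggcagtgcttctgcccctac
Cnn2: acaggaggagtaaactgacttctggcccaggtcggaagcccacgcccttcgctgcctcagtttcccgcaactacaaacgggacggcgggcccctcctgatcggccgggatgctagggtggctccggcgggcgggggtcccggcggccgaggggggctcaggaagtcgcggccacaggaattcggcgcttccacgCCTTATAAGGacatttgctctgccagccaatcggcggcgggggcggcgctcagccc

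An exact CArG box stood in 2 of the 6 windows searched, CCTAATAAGG in Myl9 and CCTTATAAGG in Cnn2, and in 1.47% of 32851 RefSeq promoter windows of the same length. With 1 central base free, an allowance made after the sequences had been seen, Acta2 held CCCTATATGG and CCTTGTTTGG and Myl9 held a second box, CCTTGTAAGG, against 8.59% of all windows. Tpm2 had no match of either kind, which says only that these letters are not in its window. Other short elements were counted as well. The GC box GGGCGG occurred in 3 of the 6 windows (Myl9, Tpm2 and Cnn2), against 32.7% of all windows. CATTCC occurred in 1 of the 6 (Acta2, against 12.6%) and TATAAA in 1 of the 6 (Vim, against 12.4%). With only 6 windows, no frequency was tested against that of all windows. These matches describe the reference sequence. No binding was measured, and Cnn2, with an exact box, did not have the same high libraries as Myl9.

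Vim encodes vimentin, the intermediate filament protein of mesenchymal cells, which leukocytes and endothelium also contain. Its signal was 238.1 and 196.6 in Cre-negative sham (217 ± 29.4, SD, n = 2), 168.5 and 177.8 in Cre-positive sham (173 ± 6.56), 550.7 and 323.2 in Cre-negative hepatectomy (437 ± 161), and 405.6 and 419.5 in Cre-positive hepatectomy (413 ± 9.84). No hepatectomy library overlapped a sham library. Replicate 1 of Cre-positive hepatectomy, below the sham mean of its genotype for Acta2, Tagln, Myl9 and Tpm2, was at 405.6. Vim rose by a log2 fold change of 1.10 (SE 0.21, 95% interval 0.61 to 1.60, adjusted p = 0.0349 by limma). The direction held in each of 17 other settings, between 0.85 and 1.30, but the call held in 6 of them. Leaving out any 1 sham library ended it, with adjusted p between 0.136 and 0.164, as did leaving out replicate 1 of Cre-negative hepatectomy (0.0784) or, narrowly, replicate 2 of Cre-positive hepatectomy (0.0504). Without replicate 1 of Cre-positive hepatectomy the adjusted p was 0.0155. Of its 5 annotated isoforms Vim-201 was the most abundant in every library, at 112.3, 124.1, 62.7 and 90.5 in sham and 363.1, 215.7, 255.0 and 227.5 after hepatectomy, with a log2 fold change of 1.45 (SE 0.26, adjusted p = 0.0534 over all isoforms). In sham and hepatectomy libraries alike the macrophage markers, whose cells also contain vimentin, were well detected: the 11 genes summed to between 2033 and 3199 in sham, 3007 and 2281 in Cre-negative hepatectomy, and 5207 and 5543 in Cre-positive hepatectomy. Their part in the Vim result was not tested.

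**Figure D3:**
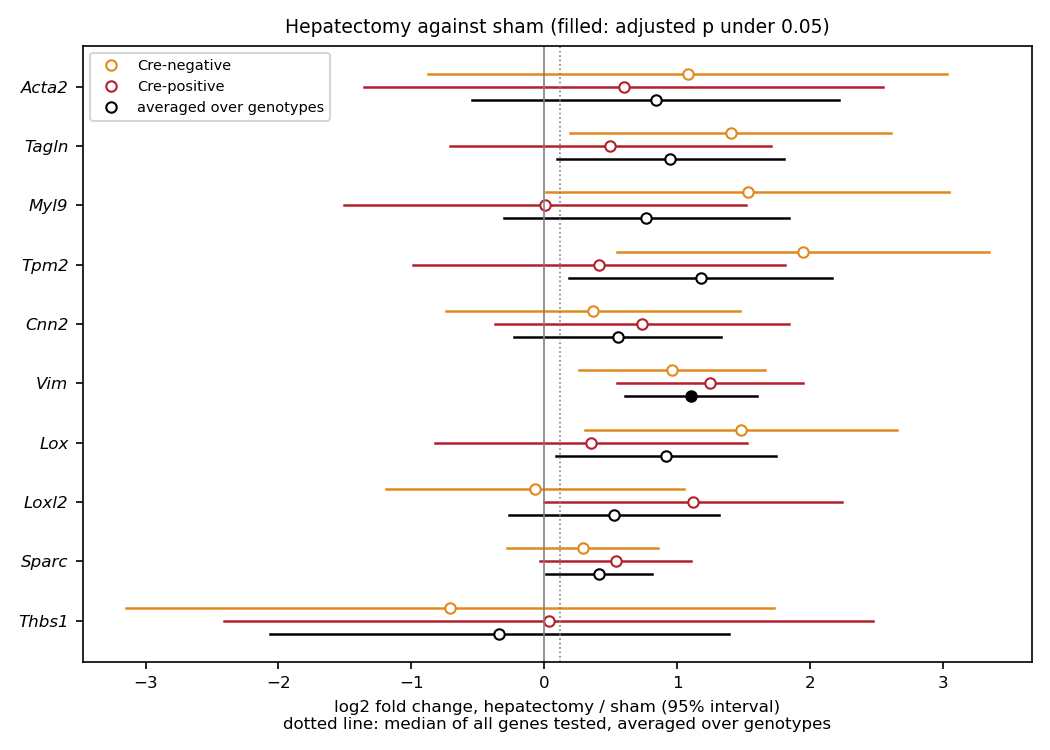
Log2 fold change of hepatectomy over sham (horizontal axis, 95% intervals from the limma fit) for the 10 genes in Cre-negative livers, Cre-positive livers and averaged over genotypes. Only the averaged value of Vim, 1.10, is filled, which marks an adjusted p under 0.05, and the dotted line is the median of all genes tested, 0.12.

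The crosslinking enzymes had little signal or little difference. Lox, the lysyl oxidase that acts on fibrillar collagen and elastin, was at 1.89 and 1.95 in Cre-negative sham, 1.70 and 4.47 in Cre-positive sham, 5.25 and 9.62 in Cre-negative hepatectomy, and 3.25 and 4.63 in Cre-positive hepatectomy. Both Cre-negative hepatectomy libraries were above every sham library, while 1 Cre-positive sham library overlapped the Cre-positive hepatectomy pair. The log2 fold change was 0.92 (SE 0.35, adjusted p = 0.181) averaged over genotypes, and at so low a signal the pseudocount of 1 shrinks it. Loxl2, a relative that crosslinks basement membrane collagen, was at 21.1, 23.4, 17.3 and 20.5 in sham, 24.2 and 18.5 in Cre-negative hepatectomy, and 25.7 and 68.5 in Cre-positive hepatectomy. A single library, replicate 2 of Cre-positive hepatectomy, carried most of its log2 fold change of 0.52 (SE 0.34, adjusted p = 0.363), which was 0.18 without that library.

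The matricellular proteins bind matrix and signal to cells without forming fibres. Sparc, osteonectin, which binds collagen and is made by stellate and endothelial cells, was at 544.9, 662.2, 666.4 and 602.1 in sham, 838.8 and 642.0 in Cre-negative hepatectomy, and 860.8 and 982.8 in Cre-positive hepatectomy. Replicate 2 of Cre-negative hepatectomy lay within the sham range and the other 3 above it (log2 fold change 0.41, SE 0.17, adjusted p = 0.199). Thbs1, thrombospondin-1, an activator of latent TGF-beta, had the opposite sign, with a log2 fold change of −0.34 (SE 0.73, adjusted p = 0.791). Its signal was 167.3 and 37.4 in Cre-negative sham, 15.6 and 31.0 in Cre-positive sham, 108.7 and 21.1 in Cre-negative hepatectomy, and 11.0 and 45.3 in Cre-positive hepatectomy. The 2 highest values were thus replicate 1 of Cre-negative sham and replicate 1 of Cre-negative hepatectomy, and no hepatectomy library exceeded the sham range. The sign turned positive when any of 3 libraries was left out: 0.20 without replicate 1 of Cre-negative sham, 0.24 without replicate 2 of Cre-negative hepatectomy and 0.15 without replicate 1 of Cre-positive hepatectomy.

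Within genotypes the response was compared with the same model. In Cre-negative livers 8 of the 10 genes had a positive log2 fold change (61% of all genes; median 1.02 against 0.21 over all genes), 0 were called where 1.11% of all genes were, and 5 had an unadjusted p under 0.05 (21.3% of all genes). Those 5 were Tpm2 (1.95, SE 0.60), Myl9 (1.53, SE 0.65), Lox (1.48, SE 0.50), Tagln (1.40, SE 0.51) and Vim (0.96, SE 0.30), and the lowest adjusted p was 0.146. In Cre-positive livers all 10 values were positive (51.6% of all genes; median 0.52 against 0.02), 0 were called where 0.943% of all genes were, and Vim alone had an unadjusted p under 0.05 (1.25, SE 0.30, adjusted p = 0.134), as did 13.5% of all genes. Among the contractile genes Cnn2 was at 0.73 in Cre-positive livers, with both libraries above the sham mean. The other Cre-positive values were 0.60 for Acta2, 0.50 for Tagln, 0.41 for Tpm2 and 0.01 for Myl9. Each of them was the mean of a library above and a library below the sham mean. Without replicate 1 they were 1.93 for Acta2, 1.16 for Tagln, 1.27 for Tpm2 and 0.96 for Myl9, and Loxl2 (1.81) and Vim (1.27) passed, where 21.2% of all genes did. Without replicate 2 they were −0.73, −0.16, −0.45 and −0.95, with 0 calls among the 10.

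The difference of the response between Cre-positive and Cre-negative livers passed for 0 of the 10 genes, against 0.0122% of all genes (lowest adjusted p 0.675 by limma). At an unadjusted p under 0.05 there were 0 of the 10, against 8.09%. All groups carried the floxed alleles, so effects of the Cre and of the deletion cannot be told apart. The estimates of this difference were split, 5 positive and 5 negative (39.7% of all genes were positive), with a median of −0.12 against −0.20 over all genes. Cre-positive against Cre-negative livers gave 0 calls among the 10 in sham (0.00608% of all genes; 0 of the 10 at an unadjusted p under 0.05 against 0.888%), 0 after hepatectomy (0.0182%) and 0 averaged over operations (0.0122%; again 0 unadjusted, against 8.53%). After hepatectomy the values were −1.56 for Myl9 (SE 0.65, 95% interval −3.08 to −0.05, adjusted p = 0.264), −1.36 for Tpm2 (SE 0.60), −1.16 for Tagln (SE 0.51) and −0.41 for Acta2 (SE 0.83), and 0.96 for Loxl2 (SE 0.48). They rest on which Cre-positive hepatectomy library is kept. Without replicate 1 they were −0.61 for Myl9, −0.50 for Tpm2, −0.50 for Tagln and 0.92 for Acta2, and Loxl2 passed at 1.65 (adjusted p = 0.0247, where 13.4% of all genes were called). Without replicate 2 they were −2.52 for Myl9, −2.22 for Tpm2, −1.82 for Tagln, −1.74 for Acta2 and 0.27 for Loxl2, with 0 calls among the 10. With all libraries Myl9 was the only 1 of the 10 at an unadjusted p under 0.05, against 18.3% of all genes. The intervals are wide: that of Acta2 ran from −2.37 to 1.54, so neither a large difference between genotypes nor its absence was shown.

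How much a single library set these values was read from fits without each library in turn. Without the sham libraries, in the order used above, 0 of the 10 genes passed, where 0.904%, 1.15%, 0.848% and 1.14% of all genes did, so that most calls of the whole table were lost as well. Vim alone passed without replicate 2 of Cre-negative hepatectomy (2.64% of all genes), and 0 passed without replicate 1 (1.54%). Without replicate 1 of Cre-positive hepatectomy, 6 of the 10 genes passed in the averaged comparison (Acta2 at 1.50, Tpm2 at 1.61, Tagln at 1.28, Myl9 at 1.25, Loxl2 at 0.87 and Vim), where 32.7% of all genes did. Without replicate 2 of the same group the values were 0.17 for Acta2, 0.75 for Tpm2, 0.62 for Tagln and 0.29 for Myl9, and 0 genes passed where 6.18% of all did. With 1 library left in a group, its spread is assumed to equal that of the other groups. The hepatectomy libraries also differed by the GC content of genes. Shifts were taken against the mean of all sham libraries of both genotypes. Genes of at least 55% GC had a median shift of 0.60 and 0.38 in the Cre-negative libraries. In Cre-positive hepatectomy it was −0.11 in replicate 1 and 0.65 in replicate 2. The 3 libraries high for Tagln, Myl9 and Tpm2 were thus the 3 with a positive shift. Genes under 45% GC had 0 and −0.05 in the Cre-negative libraries. In Cre-positive hepatectomy they had −2.15e-06 in replicate 1 and −1.14 in replicate 2. The 10 genes ranged from 43.3% GC in Lox to 56.6% in Myl9, with Tpm2 (56.5%) and Cnn2 (56.3%) in the higher class. After a correction for GC content Vim was at 0.85 (adjusted p = 0.0538) and 0 of the 10 genes passed. The correction also lowered Myl9 from 0.77 to 0.42, Cnn2 from 0.55 to 0.21, Loxl2 from 0.52 to 0.27 and Sparc from 0.41 to 0.15. Tpm2 was lowered from 1.18 to 0.83, Tagln from 0.95 to 0.75 and Acta2 from 0.84 to 0.74. Lox was raised from 0.92 to 1.17. The part of GC content beyond this correction was not tested.

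**Figure D4:**
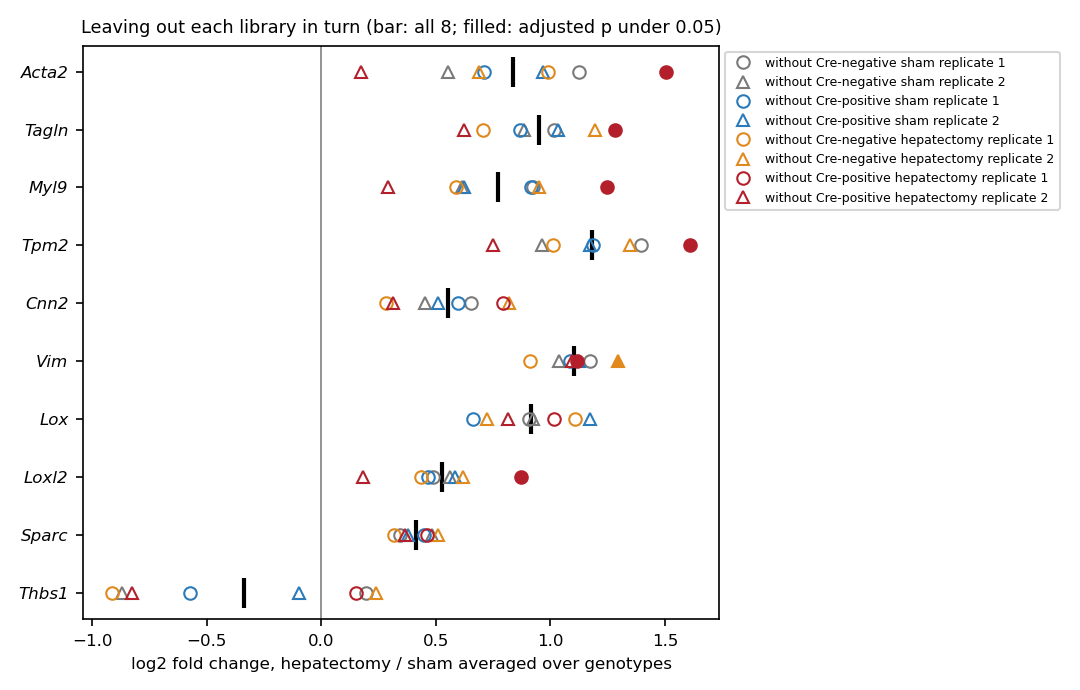
Log2 fold change of hepatectomy over sham, averaged over genotypes (horizontal axis), for the 10 genes with all 8 libraries (bars) and without each library in turn (symbols; filled where the adjusted p is under 0.05). The values without replicate 1 of Cre-positive hepatectomy are the highest for Acta2, Tagln, Myl9, Tpm2 and Loxl2, and Thbs1 lies on both sides of 0.

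Some markers of other cells that express contractile genes were high in the same libraries. The 9 vascular smooth muscle markers (Myh11, Cnn1, Actg2, Lmod1 and others) had a summed signal of 120.9 to 190.3 in sham, 313.1 and 326.6 in Cre-negative hepatectomy, and 95.9 and 399.5 in Cre-positive hepatectomy, so their sum was lowest in the library where Acta2 and Myl9 were lowest. In that library Myh11, the smooth muscle myosin heavy chain, was at 6.04 against 25.1 to 95.01 in the other 7. Actg2 was at 0.16 there and Cnn1 at 0.13. The highest Myh11 value was that of replicate 1 of Cre-negative sham. The other hepatectomy libraries held 80.9, 70.5 and 47.7, above the remaining sham libraries (25.1 to 40.5). Smtn was the largest part of the sum in each hepatectomy library, at 154.4, 166.3, 74.6 and 284.8 in the order above. Its sham values were 61.4 to 65.6, so for Smtn all hepatectomy libraries lay above sham. Of the 9 markers 0 passed averaged over genotypes, where 4.49% of all genes tested did. Positive values were held by 8 (median 0.54), as by 57.7% of all genes tested. The 9 portal fibroblast markers summed to 151.7 to 188.1 in sham, 261.1 and 263.6 in Cre-negative hepatectomy, and 125.4 and 302.8 in Cre-positive hepatectomy (0 of 9 passed), the same order of the 4 hepatectomy libraries. The 7 mesothelial markers summed to 131.1 to 243.7 in sham, 189.9 and 399.4 in Cre-negative hepatectomy, and 64.7 and 117.7 in Cre-positive hepatectomy (0 of 7), a different order. The 11 skeletal muscle markers summed to at most 28.0 in the sham libraries, 89.7 and 55.8 in Cre-negative hepatectomy, and 14.2 and 39.2 in Cre-positive hepatectomy, most of it from the light chain gene Mylpf (63.2, 37.3, 11.5 and 33.9 in the 4 hepatectomy libraries). Of the skeletal muscle genes 5 to 8 were listed at 0 in each library, with Ckm, Myh1 and Myh2 at 0 in all. Of the 4 tested 0 passed for hepatectomy averaged over genotypes. At an unadjusted p under 0.05 (limma) 3 (Casq1, Myh7 and Tnni2) were higher, as were 16.1% of all genes tested. The part of smooth muscle, portal fibroblasts, mesothelium or skeletal muscle in the contractile values was not tested.

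The 13 markers of quiescent stellate cells, which lose them on turning into myofibroblasts, summed to between 2597 and 3566 in sham and between 1758 and 2166 after hepatectomy, with no overlap. Of these 13 genes 1 rose and 1 fell, where 4.49% of all genes tested passed in either direction, and the median was −0.50. Most of the sum came from Ecm1 and Reln. Single markers set replicate 1 of Cre-positive hepatectomy apart from the other 3 hepatectomy libraries, with Des, the muscle-type intermediate filament desmin, at 14.8 against 41.95 to 45.2, Ecm1 at 431.7 against 612.1 to 968.6, and Hgf at 190.5 against 15.96 to 63.1. For the remaining lists, 0 rose and 1 fell of 12 endothelial markers, 0 and 3 of 12 hepatocyte markers, and 0 and 0 of 11 macrophage, 11 leukocyte, 4 platelet and 6 cholangiocyte markers tested.

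Genes of the same machinery gave context for the 10. In the averaged hepatectomy comparison 4.49% of all genes tested passed, 3.64% as higher, and 57.7% were positive. An unadjusted p under 0.05 (limma) was held by 23.8% in either direction and by 16.1% as higher. Of 28 other genes of the contractile apparatus (of which Actg2, Cnn1, Lmod1 and Smtn are also smooth muscle markers), 3 rose and 0 fell after hepatectomy averaged over genotypes (median 0.48, 23 positive): the myosin essential light chain Myl6 (0.98, SE 0.15, adjusted p = 0.0161), the transgelin relative Tagln2 (1.64, SE 0.26, adjusted p = 0.0193) and the tropomyosin Tpm1 (0.88, SE 0.17, adjusted p = 0.0339). By genotype, 18 of the 28 were positive in Cre-negative livers (median 0.39), where 61% of all genes were. In Cre-positive livers 24 were (median 0.57), where 51.6% of all genes were. Of 20 genes for collagen crosslinking and processing 0 passed and 17 were positive (median 0.37) averaged over genotypes. An unadjusted p under 0.05 (limma) was held by 5 of the 20, all 5 higher. The most abundant of them, Bmp1, which cleaves procollagen and the Lox proenzyme, was at 0.13 (SE 0.17, adjusted p = 0.640).

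Of 15 fibrillar and elastic substrates of the lysyl oxidases 4 rose and 0 fell (median 0.50), where 3.64% of all genes tested rose. By limma Col1a1 was at 2.30 (SE 0.38, adjusted p = 0.0220) and Col3a1 at 1.14 (SE 0.22, adjusted p = 0.0347). Fbn1 was at 0.92 (SE 0.18, adjusted p = 0.0377) and Col5a2 at 1.17 (SE 0.25, adjusted p = 0.0458). Among 15 tested matricellular genes only Spon2, spondin-2, rose (2.81, SE 0.39, adjusted p = 0.0121). Of 17 tested regulators of the SRF, MRTF and TGF-beta pathways 0 passed, also at an unadjusted p under 0.05, and 9 were positive (median 0.10), with the most abundant, the small GTPase Rhoa, at 0.10 (SE 0.15). Over fits without 1 library, the calls ranged from 0 to 14 in the contractile list, 0 to 8 in the crosslinking list, 0 to 9 among the substrates, 0 to 6 among matricellular genes and 0 to 5 among the regulators, each highest without replicate 1 of Cre-positive hepatectomy.

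For 4 of the genes the most similar profiles were sought among the 13478 genes whose mean signal reached 5, by the root mean square difference of centred log2 signal over the 8 libraries. Nearest to Vim were Krt18, keratin 18 of hepatocytes and bile ducts (0.12), Ckap4 (0.13) and Psmg4 (0.15). Nearest to Acta2 were C1qtnf2 (0.30), Tprn (0.33) and Lin37 (0.33), and to Lox Bbc3, Calr3 and Bcdin3d (each 0.25). Nearest to Thbs1 were Serpinb2 (0.34), Nr4a1 (0.34) and Fos (0.56), the latter pair known as immediate early genes. Fos was at 617.0 in replicate 1 of Cre-negative sham and at 16.1 in replicate 1 of Cre-positive hepatectomy, the libraries in which Thbs1 was highest and lowest. Thbs1 was also the farthest from the other 9 genes. These distances describe 8 libraries and carry no test.

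Annotated isoforms were estimated separately by the submitters, and of 34 isoforms of the 10 genes 24 were tested. Averaged over genotypes 1 was called, Sparc-003, where 1.72% of all isoforms were (a call lost when any one of the sham libraries or replicate 2 of Cre-positive hepatectomy was left out), and 7 had an unadjusted p under 0.05 (19.1%). Sparc-003 was at 46.7 and 41.1 in Cre-negative sham, 54.9 and 35.2 in Cre-positive sham, 0.02 and 0.03 in Cre-negative hepatectomy, and 86.8 and 98.9 in Cre-positive hepatectomy. Its signal was thus near 0 in exactly the 2 Cre-negative hepatectomy libraries. Sparc-005 had the same order, at 32.8, 39.5, 47.5 and 37.4 in sham, 0.03 and 6.08 in Cre-negative hepatectomy, and 60.2 and 70.6 in Cre-positive hepatectomy. Sparc-001 was at 172.1 to 214.6 in sham, 54.7 and 83.6 in Cre-negative hepatectomy, and 216.0 and 297.6 in Cre-positive hepatectomy. The other main isoform, Sparc-002, was the highest of the 4 in every library, at 784.0 and 552.2 in Cre-negative hepatectomy against 293.2 to 395.8 in sham and 496.4 and 515.8 in Cre-positive hepatectomy.

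In contrasts added after these values had been seen, Sparc-003 fell by 5.45 on the log2 scale after hepatectomy in Cre-negative livers (SE 0.42, adjusted p = 0.00258, where 4.5% of isoforms were called) and was at 1.06 in Cre-positive livers (SE 0.42, adjusted p = 0.580, where 0.0106% were). After hepatectomy Cre-positive exceeded Cre-negative livers for Sparc-003 (6.51, adjusted p = 0.00142), Sparc-005 (4.62, adjusted p = 0.0330), Sparc-001 (1.89, adjusted p = 0.0333) and Vim-002 (3.78, adjusted p = 0.0446), where 5.17% of isoforms were called. Of these 4, Sparc-003 kept its call whichever library was left out (adjusted p 0.00154 to 0.0118). Vim-002 lost it without each library in turn (0.0556 to 0.147), as did Sparc-001 (up to 0.0953) and Sparc-005 (up to 0.127) without each of the 4 sham libraries and without replicate 2 of Cre-positive hepatectomy, and further without replicate 1 of Cre-negative hepatectomy for Sparc-001 and replicate 1 of Cre-positive hepatectomy for Sparc-005. The whole gene did not pass in any of these contrasts. Such near-0 values were found mainly in that group: of 17239 isoforms at 10 or more in the other 6 libraries, 180 (1.04%) were under 0.1 in both Cre-negative hepatectomy libraries. The same count was 2 for the Cre-negative sham pair, 0 for the Cre-positive sham pair and 3 for the Cre-positive hepatectomy pair. Whether the estimates of isoforms failed in those libraries was not tested.

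**Figure D5:**
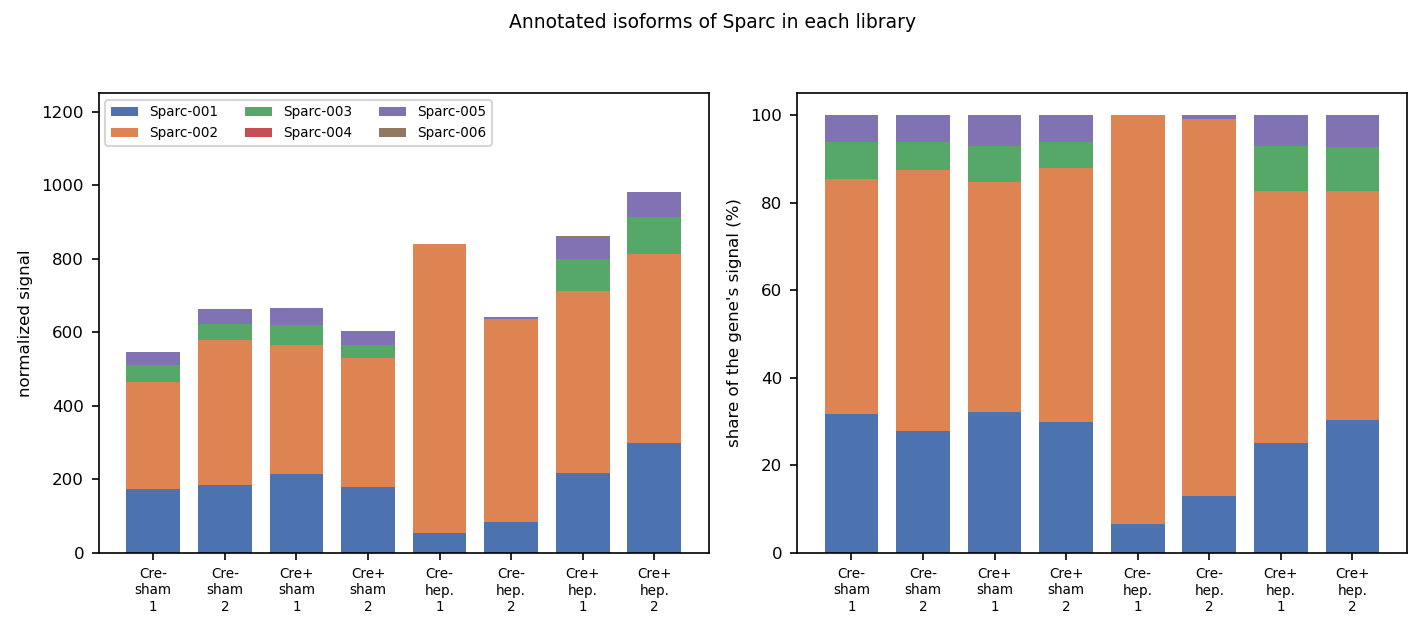
Signal of the annotated Sparc isoforms stacked for each of the 8 libraries (left, normalized signal) and as a share of the gene's signal (right, percent). Sparc-003 is at 0.02 and 0.03 in Cre-negative hepatectomy, and between 35.2 and 98.9 in the other 6.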

How the data were processed

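RNA of whole liver was sequenced in 8 libraries, and the authors deposited normalized signal values of genes and of isoforms. The submitters' processing notes name TopHat and Cufflinks with the mouse builds mm9 and NCBIM37; neither versions nor the normalization are stated there. The upper quartile of isoform signal was 9.14 to 9.62 in every library, a gene is the sum of its isoforms, and the values are not counts. No column was left unassigned. For the 16443 genes whose mean signal reached 1, log2(signal + 1) was tested with limma 3.58.1 (R 4.3.3), with 4 group means, a moderated spread with an intensity trend (4 residual degrees of freedom), two-sided p-values, Benjamini-Hochberg adjustment over all genes (isoforms over all isoforms) and a threshold of 0.05; FPKM had been assumed beforehand. Errors are standard errors with n = 2 per group. The log scale understates changes of low genes. The 10 genes, the 5 pathway lists and the 11 marker lists were chosen with earlier results of these data known. Named are all 10 genes, Pdgfrb, Gfap, up to 3 called genes per pathway list (or the most abundant), the 3 nearest profiles of Acta2, Vim, Lox and Thbs1, and isoforms of at least 10% of their gene; Col5a2 completes a count, Sparc-005, Vim-002, Alb and single markers were named after their values were seen. The tests were checked on simulated data.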

Additional observations from a re-analysis of the deposited data

Results flagged for a closer look

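The response of the isoform Sparc-003 to hepatectomy differed between genotypes by a log2 value of 6.51 (SE 0.59, adjusted p = 0.0124 by limma, where 0.868% of isoforms were called), with both Cre-negative libraries lower and both Cre-positive libraries higher than their sham libraries. The test was added after the values were seen. The difference was 9.51 with a pseudocount of 0.1 and 3.35 with a pseudocount of 10. Without any 1 sham library it was between 6.19 and 6.82 with an adjusted p of 0.0753 or more, and without any 1 hepatectomy library between 6.41 and 6.60 with adjusted p between 0.00577 and 0.0357. The gene as a whole did not pass for this difference, and the near-0 estimates behind it are described with the isoform values.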

How the results depend on the processing

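In the averaged hepatectomy comparison the count of the 10 genes called, 1 in the reported fit, was 0 with no filter, with median-of-ratios scaling, without the intensity trend, with array weights and with a GC correction, and 0 to 6 when 1 library was left out (6 without replicate 1 of Cre-positive hepatectomy). Leaving out 1 library gave 0 to 1 calls in Cre-negative livers (Tpm2, without either Cre-positive hepatectomy library, where 10.3% and 9.99% of all genes were called), and without replicate 1 of that group up to 2 in Cre-positive livers (Loxl2 and Vim, with 21.2% of all genes) and 1 for genotype after hepatectomy (Loxl2, with 13.4%), otherwise 0. Isoforms called were 0 to 5. Thbs1 ran from −0.91 to 0.24, positive at 0.20, 0.24 and 0.15 in the 3 fits named above. No paired analysis was possible because the titles number the libraries 1 to 8 and share no replicate number between groups. Fits on only the compared groups are the same fit for averaged and interaction contrasts. With unknown depth no detection limit can be given.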
